A study of Mus musculus with 6 samples.

Results

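The 7 genes described here encode the proteins that make, package, clear and break down gamma-aminobutyric acid (GABA), the main inhibitory transmitter of the adult brain. They were chosen by name: Gad1 and Gad2 for synthesis, Slc32a1 for vesicle loading, Slc6a11 and Slc6a13 for uptake across the plasma membrane, and Abat and Aldh5a1 for breakdown. All 7 were measured, among 19938 genes in all. Each was read from a single probe set with 1 gene symbol, the only one paired with that gene alone.

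The cultures came from the mouse embryonic stem cell line W4 and were analysed after 16 days of neural differentiation on a coated surface in a mixed F12-DMEM and Neurobasal medium. Both groups received B27 and N2 supplements, basic FGF, laminin, serum albumin, insulin and beta-mercaptoethanol. In 1 group valproate (VPA) was present at 300 uM throughout; valproate is an antiepileptic drug and an inhibitor of histone deacetylases, and the labels call this dose sub-toxic for a developmental neurotoxicant. Cultures of the other group were given the solvent alone, phosphate-buffered saline (PBS), for the same time. Each group had 3 arrays, described in the design text as biological replicates of 1 cell line, and the RNA was that of whole cultures, so no cell type was separated.

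GABA is made from glutamate in 1 step by glutamate decarboxylase, for which vertebrates have a pair of genes, and the enzyme needs pyridoxal phosphate, the active form of vitamin B6. A vesicular transporter loads GABA, and also glycine, into synaptic vesicles, and sodium-coupled carriers of the Slc6 family on neurons, glia and meningeal cells take it back up. In mitochondria GABA transaminase turns it into succinic semialdehyde, which succinic semialdehyde dehydrogenase oxidises to succinate. GABAergic neurons arise in many parts of the developing nervous system under different transcription factors, Dlx proteins in the ventral forebrain and Tal and Gata proteins in the midbrain and hindbrain among them. Valproate has long been studied for raising GABA and for inhibiting enzymes of its breakdown.

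Values below are the deposited normalized signals on the log2 scale, on which a difference of 1 is a doubling. Each change is the VPA mean less the PBS mean, given with its moderated standard error (SE) from a limma fit across all genes, and a gene was called where its Benjamini-Hochberg adjusted p lay under 0.05. Array medians lay between 6.99 and 7.03. Over all genes VPA replicate 1 stood apart from the other VPA arrays, with a median absolute difference of 0.12 to 0.13 from them, against 0.06 to 0.07 between PBS arrays. A level of 6.15, the 95th percentile of 1027 olfactory receptor genes that are mostly silent outside the nose, served as a gauge of background, and all 7 genes had means above it in both groups. The cultures carried neuronal transcripts: the neuronal tubulin gene Tubb3 averaged 11.33 with VPA and 11.60 with PBS, while the stem cell genes Pou5f1 and Nanog lay below the gauge in both groups.

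Synthesis genes fell, the vesicle gene fell by less, and a breakdown gene rose. Gad1 and Gad2 were lower with VPA by nearly the same amount, to 0.361 and 0.358 times the signal with PBS. Slc32a1 fell by a smaller amount, Abat rose, and the changes of Slc6a11, Slc6a13 and Aldh5a1 did not pass the test. Of the 7 genes 4 passed the test, 3 that fell and 1 that rose, where 29.2% of all genes tested passed, 15.7% falling and 13.6% rising. After quantile normalization the balance over all genes turned round, with 3147 higher and 2671 lower, against 2702 and 3123 as deposited. The 3 GABA genes that fell had all VPA arrays below all PBS arrays, as did 23.8% of all genes, and Abat the reverse, as did 20.2%. The median change of the 7 was -0.19, against 0.00 over all genes tested.

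Gad1 (probe set 10472707) encodes the larger of the glutamate decarboxylases, which is spread through the cell body. It had signals of 9.11, 9.21 and 9.21 with VPA, against 10.71, 10.51 and 10.71 with PBS. The groups were separated by 1.30, a wide gap beside the spread within either group. The mean was 9.17 ± 0.06 with VPA and 10.64 ± 0.11 with PBS (SD, n = 3 each), a change of -1.47 (SE 0.07, adjusted p = 2.79e-06) or a 2.77-fold lower signal.

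Gad2 (probe set 10469672) encodes the smaller enzyme, which is anchored to synaptic vesicles. Its signals were 8.52, 8.66 and 8.51 with VPA, against 10.18, 9.90 and 10.06 with PBS. Again no VPA array came near a PBS array, with a gap of 1.24 between the groups. The mean was 8.56 ± 0.08 with VPA and 10.05 ± 0.14 with PBS (SD, n = 3 each), a change of -1.48 (SE 0.08, adjusted p = 5.06e-06) or a 2.80-fold lower signal. Among all genes, 107 (0.537%) changed by as much as Gad2 or more in either direction.

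The changes of the paired synthesis genes were set against each other within each array. Gad2 minus Gad1 was -0.59, -0.55 and -0.69 with VPA, against -0.53, -0.61 and -0.65 with PBS, so the groups overlapped. The difference between their changes was -0.01 with a 95% interval of -0.24 to 0.21 (adjusted p = 0.903), which leaves room for unequal changes of up to that size. In this fit 99.8% of genes differed from Gad1 in change, and Gad2 was among the 38 that did not pass. All genes of that fit share the noise of Gad1, which moderation across genes treats as known. With each gene's own residual variance, an alternative chosen after seeing the data, the interval was -0.17 to 0.14.

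Slc32a1 (probe set 10478124) encodes the vesicular inhibitory amino acid transporter, which GABAergic and glycinergic neurons share. Its signals were 7.46, 7.33 and 7.07 with VPA, against 7.80, 7.66 and 7.79 with PBS. All VPA arrays lay below all PBS arrays, but the gap was only 0.20 and VPA replicate 1 was the nearest to PBS. The mean was 7.29 ± 0.20 with VPA and 7.75 ± 0.08 with PBS (SD, n = 3 each), a change of -0.46 (SE 0.10, adjusted p = 0.00693) or 0.725 times the signal with PBS. The call held without any 1 of the 6 arrays, with adjusted p between 0.00122 and 0.0358, and was lost with the gene's own residual variance (adjusted p = 0.0788). The change of Slc32a1 differed from that of Gad1 by 1.01 (95% interval 0.78 to 1.23, adjusted p = 6.83e-19; 0.61 to 1.40 with its own variance, adjusted p = 0.00225).

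**Figure D1:**
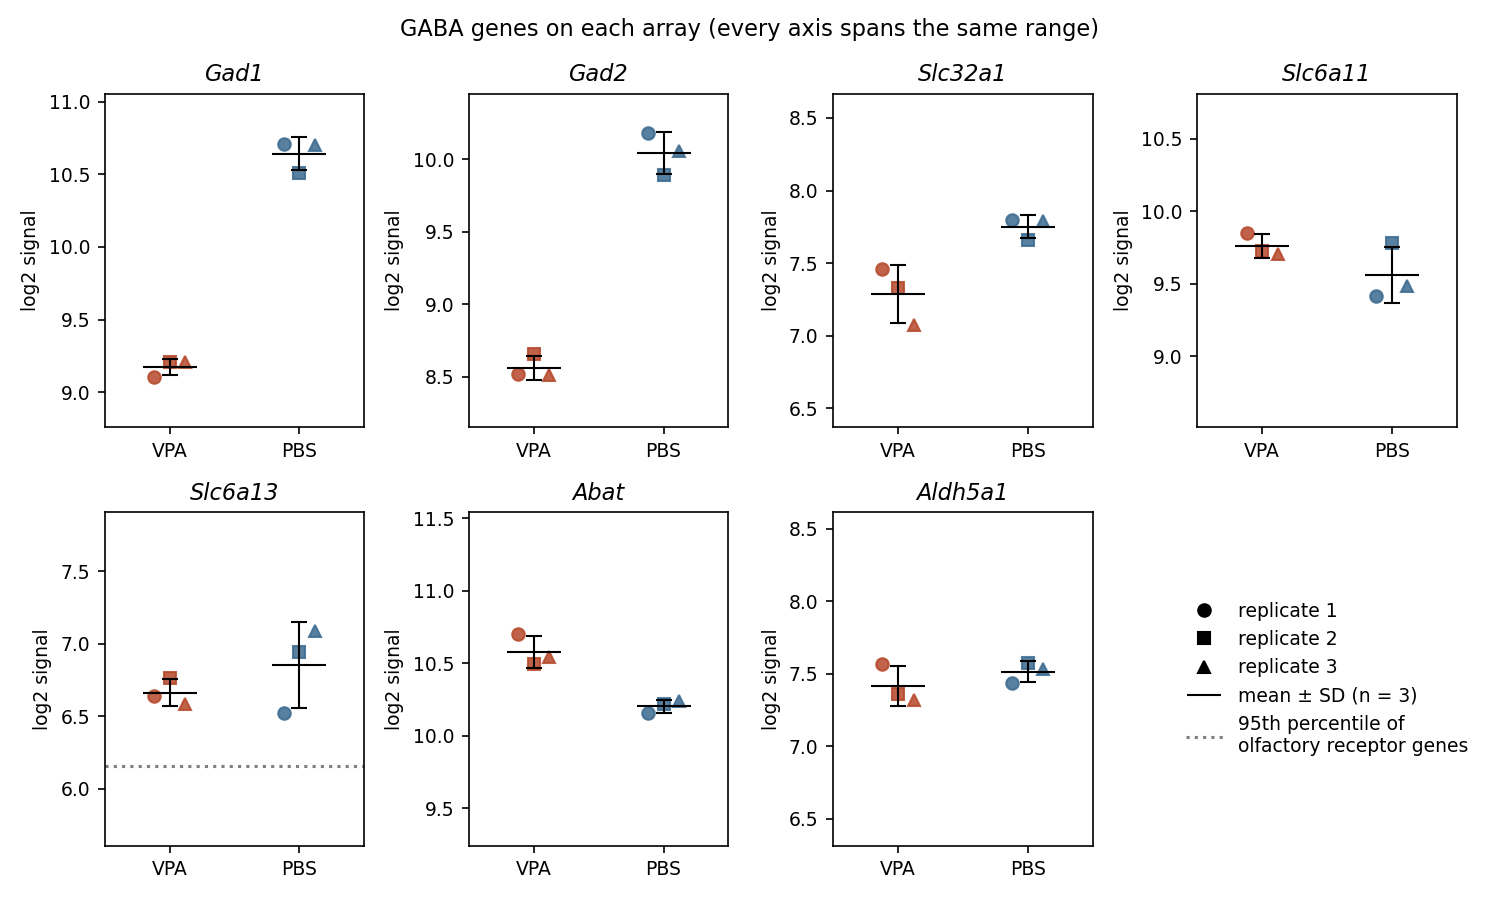
Log2 signal (vertical axis) of each of the 7 GABA genes on the 3 VPA and 3 PBS arrays (horizontal axis), with replicates as symbols and the mean ± SD as a bar; the axes differ in position but span the same range, and the dotted line, drawn where it falls within a panel, is the background gauge of 6.15. Gad1 and Gad2 show gaps of 1.30 and 1.24 between the groups, Slc32a1 and Abat gaps of 0.20 and 0.25, and the other 3 genes overlap.

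The stretches before the start sites of these 3 genes, all on chromosome 2, are shown because the genes fell together, though by different amounts. Another reason is that some GABAergic lineage factors described below bind short motifs among those searched. Each sequence is the 250 bases before the annotated start on the plus strand, from RefSeq (GRCm38.p6). Capitals mark matches to any of 5 motifs, read on both strands. Sites of Gata, Sox and Tfap2 proteins were not among them. CANNTG is the E-box and TAATTN the core of homeodomain sites. GGGCGG is the GC box, and TATAAA is the TATA box. TGACGTCA is the cAMP response element.
Gad1, chr2:70561879-70562128: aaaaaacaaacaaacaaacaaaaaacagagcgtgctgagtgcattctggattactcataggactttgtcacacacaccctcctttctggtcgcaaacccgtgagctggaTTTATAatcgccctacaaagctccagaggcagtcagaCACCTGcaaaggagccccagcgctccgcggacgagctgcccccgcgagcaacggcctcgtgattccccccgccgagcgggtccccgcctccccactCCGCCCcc
Gad2, chr2:22622077-22622326: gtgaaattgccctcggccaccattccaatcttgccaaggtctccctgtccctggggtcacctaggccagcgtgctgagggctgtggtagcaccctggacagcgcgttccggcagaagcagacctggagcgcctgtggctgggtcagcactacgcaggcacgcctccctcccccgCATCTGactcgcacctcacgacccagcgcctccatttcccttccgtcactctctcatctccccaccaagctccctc
Slc32a1, chr2:158610508-158610757: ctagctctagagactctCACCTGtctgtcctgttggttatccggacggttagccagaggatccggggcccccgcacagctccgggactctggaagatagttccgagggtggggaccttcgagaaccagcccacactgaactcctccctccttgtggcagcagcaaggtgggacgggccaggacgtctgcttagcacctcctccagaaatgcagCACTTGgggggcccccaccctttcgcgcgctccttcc
Each of the 3 stretches held at least 1 E-box, the motif of basic helix-loop-helix factors such as Tal proteins and their partners: CACCTG 104 bases before the start of Gad1, CATCTG 76 bases before that of Gad2, and CACCTG and CACTTG 233 and 37 bases before that of Slc32a1. An E-box stood in 66.2% of all 32851 windows of this length, so its presence does not set these genes apart. Gad1 also held a GC box at 8 bases, in a motif found in 32.7% of windows, and the TATA letters at 141 bases, found in 12.4%. The homeodomain core (24.95% of windows) and the cAMP response element (1.55%) were in none of the 3 stretches, which says only that these letters are absent from these windows. The CG dinucleotide count was 17 for Gad1, 13 for Gad2 and 12 for Slc32a1, numbers that 23.5%, 31.5% and 33.5% of windows reached.

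The uptake carriers did not follow the synthesis genes. Slc6a11 (probe set 10540822) encodes a GABA transporter found mainly on astrocytes in the mature brain. It had signals of 9.85, 9.73 and 9.70 with VPA, against 9.42, 9.78 and 9.49 with PBS. PBS replicate 2 lay among the VPA arrays, so the groups overlapped. The change of 0.20 (SE 0.10, 95% interval -0.02 to 0.42) did not pass (adjusted p = 0.157), and without PBS replicate 2 it was 0.31 and passed (adjusted p = 0.0263).

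Slc6a13 (probe set 10541318) encodes a GABA transporter of the leptomeninges, liver and kidney. Its signals were 6.64, 6.77 and 6.58 with VPA, against 6.52, 6.95 and 7.09 with PBS. The PBS arrays were spread more widely than the VPA arrays and enclosed them. The change of -0.19 (SE 0.13, 95% interval -0.49 to 0.11) did not pass (adjusted p = 0.321). It was -0.36 without PBS replicate 1, where it passed (adjusted p = 0.0233), and -0.07 without PBS replicate 3. Slc6a12, which encodes a carrier of betaine and GABA, averaged 6.23 with VPA and 6.11 with PBS, at the background gauge (adjusted p = 0.26).

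The breakdown enzymes differed from each other in outcome. Abat (probe set 10433445) encodes GABA transaminase, the mitochondrial enzyme of the initial step. Its signals were 10.70, 10.49 and 10.55 with VPA, against 10.15, 10.22 and 10.24 with PBS. Every VPA array lay above every PBS array, by at least 0.25. The mean was 10.58 ± 0.11 with VPA and 10.20 ± 0.05 with PBS (SD, n = 3 each), a change of 0.38 (SE 0.07, adjusted p = 0.00351) or 1.3 times the signal with PBS. The call held in all alternatives run, with adjusted p between 0.000913 and 0.0369.

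Aldh5a1 (probe set 10408335) encodes succinic semialdehyde dehydrogenase, the next enzyme, whose loss in humans causes a disorder of GABA breakdown. Its signals were 7.57, 7.36 and 7.32 with VPA, against 7.44, 7.57 and 7.53 with PBS. VPA replicate 1 lay level with the highest PBS array while the other VPA arrays lay below the PBS group. The change of -0.10 (SE 0.08, 95% interval -0.28 to 0.08) did not pass (adjusted p = 0.394). Without VPA replicate 1 it was -0.18 and passed (adjusted p = 0.0405).

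Within the VPA group, replicate 1 did not shift all 7 genes one way. Compared with the average of replicates 2 and 3, it was higher by 0.26 for Slc32a1, 0.23 for Aldh5a1, 0.19 for Abat and 0.14 for Slc6a11, and differed by -0.10 for Gad1, -0.07 for Gad2 and -0.03 for Slc6a13. Without that array, or without PBS replicate 1, 4 of the 7 genes fell and 1 rose, and without PBS replicate 2, 3 fell and 2 rose. Median centring and quantile normalization left the counts at 3 and 1.

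Genes of neurons in general were also lower. Of 20 pan-neuronal genes 14 fell and 2 rose, with a median change of -0.27, and 9 fell without PBS replicate 2. Celf4, an RNA-binding protein gene of neurons, changed by -0.76 (SE 0.09), while the neurofilament gene Nefm rose by 1.24 (SE 0.06). Their summed signal was 15.14 to 15.19 with VPA, against 15.35 to 15.42 with PBS. In whole cultures fewer neurons of a type and less transcript per neuron cannot be told apart. Each gene was also read relative to the mean of the 20 pan-neuronal genes on the same array, a mean that changed by -0.17. That scale does not separate fewer neurons of a type from less transcript in each. The fall of the mean adds 0.17 to the change of every gene, also of genes expressed mainly in other cells.

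On that relative scale Gad1 stood at -1.48, -1.32 and -1.30 with VPA, against 0.02, -0.25 and 0.01 with PBS, a change of -1.30 (SE 0.09, adjusted p = 9.52e-07). The change of Gad2 was -1.31 (SE 0.10, adjusted p = 1.38e-06). Both synthesis genes thus fell by more than the pan-neuronal mean did. In this fit 46.0% of all genes changed relative to the pan-neuronal mean. Abat rose by 0.55 (SE 0.07, adjusted p = 0.000132) on this scale and Slc6a11 by 0.37 (SE 0.08, adjusted p = 0.00534). The call of Slc6a11 was lost with its own residual variance (adjusted p = 0.0567). Slc32a1 fell by 0.29 (SE 0.09, adjusted p = 0.0259). It no longer passed without VPA replicate 3 (adjusted p = 0.0967), PBS replicate 1 (adjusted p = 0.0921) or PBS replicate 3 (adjusted p = 0.0881), and with its own variance (adjusted p = 0.126). Slc6a13 and Aldh5a1 did not pass, with changes of -0.02 (95% interval -0.28 to 0.25) and 0.07 (95% interval -0.09 to 0.23).

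**Figure D2:**
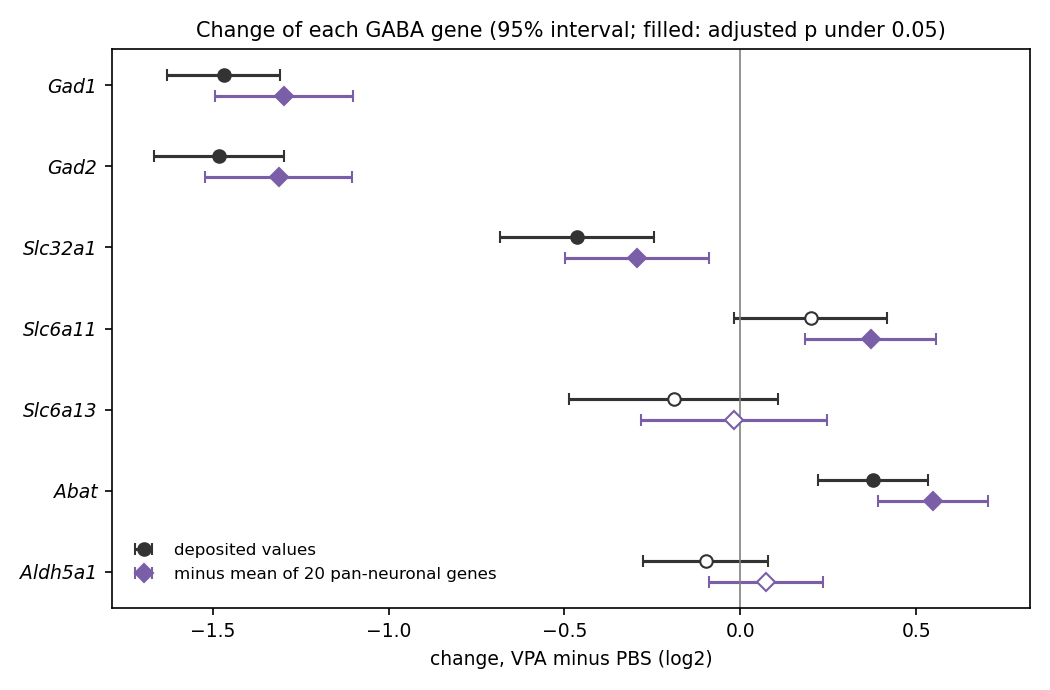
Change of each GABA gene (horizontal axis, VPA minus PBS, log2) with its 95% interval, on the deposited values (circles) and relative to the mean of 20 pan-neuronal genes (diamonds); filled symbols passed at an adjusted p under 0.05. Gad1 and Gad2 lie near -1.47 and -1.48, and at -1.30 and -1.31 relative to the pan-neuronal mean, while Abat lies above 0 on both scales.

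Markers of other cells were measured beside the carriers and enzymes that those cells can express. Of 14 astrocyte genes 3 rose and 3 fell (2 and 2 without VPA replicate 1, VPA replicate 3, PBS replicate 1 or PBS replicate 2), with Fgfr3, a growth factor receptor gene also of progenitors, up by 0.98 (SE 0.09) and Aldh1l1, a folate enzyme gene of astrocytes, at -0.42 (SE 0.07). The summed astrocyte signal was 13.05 to 13.16 with VPA, against 12.94 to 13.06 with PBS, and Aqp4, S100b and Gjb6 lay below the gauge in both groups. Of 14 meningeal genes 5 rose and 2 fell, with a median change of 0.08. Crabp2, a retinoic acid carrier gene, rose by 2.61 (SE 0.08) and the forkhead gene Foxd1 by 1.12 (SE 0.12), while the zinc finger gene Zic1, also of dorsal neural cells, changed by -0.82 (SE 0.08) and Ptgds, a prostaglandin synthase gene, by -0.43 (SE 0.06). The summed signal of the 14 genes, added before taking logs, was 11.76 to 11.85 with VPA, against 11.35 to 11.45 with PBS. Bright genes weigh most in such a sum, and Crabp2 alone averaged 10.35 with VPA and 7.75 with PBS. The sum therefore does not show a rise across the list. Of 13 fibroblast and matrix genes 12 rose, with Postn, which encodes periostin, at 2.66 (SE 0.13) and the proteoglycan gene Lum at 2.29 (SE 0.12), and the summed signal was 14.21 to 14.26 with VPA, against 13.51 to 13.58 with PBS. The part of other cells in the changes of Abat, Slc6a11 and Slc6a13 was not tested.

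The liver and kidney list bears on Abat, Slc6a12 and Slc6a13, which those organs express. Of its 10 measured genes 1 fell, the thyroid hormone carrier gene Ttr at -1.90 (SE 0.17), which choroid plexus also expresses. Alb, the albumin gene, lay below the gauge in both groups. Of 8 choroid plexus genes 3 fell, Ttr and the homeobox gene Otx2 at -1.24 (SE 0.11) among them, and Kcne2 and Clic6 were below the gauge. The count was 2 without PBS replicate 1 or PBS replicate 3. Of 9 oligodendrocyte lineage genes 2 rose and 3 fell, of 9 endothelial genes 7 rose, and of 7 pluripotency genes, 6 of them below the gauge, 1 rose (Klf4, which did not pass when any 1 PBS array was left out).

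Genes that supply the substrate of GABA synthesis changed little. Of 10 measured genes of glutamate and glutamine supply 1 rose and 1 fell. Slc38a5, a glutamine carrier gene, rose by 0.52 (SE 0.06, adjusted p = 0.000238) across the background gauge, with a mean of 6.52 with VPA and 5.99 with PBS. Slc38a3, another glutamine carrier gene, fell by 0.25 (SE 0.08, adjusted p = 0.0455), but did not pass after quantile normalization and without any of 4 arrays, VPA replicates 2 and 3 and PBS replicates 2 and 3. The glutamine synthetase gene Glul changed by -0.03 (95% interval -0.16 to 0.10).

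Among 8 genes of the vitamin B6 cofactor and of side routes to and from GABA, 1 rose and 2 fell. Pdxk encodes pyridoxal kinase, which makes the cofactor of the Gad enzymes and of GABA transaminase. It had signals of 8.89, 8.68 and 8.72 with VPA, against 9.19, 9.37 and 9.31 with PBS. The groups did not overlap, and the change was -0.53 (SE 0.08, adjusted p = 0.000898). Aldh9a1, an aldehyde dehydrogenase gene that can make GABA from a putrescine product, rose by 0.20 (SE 0.06, adjusted p = 0.0298), but did not pass without VPA replicate 2 or without any 1 PBS array. Maob, a monoamine oxidase gene, changed by -0.71 (SE 0.08), but its means of 5.06 with VPA and 5.76 with PBS both lay below the gauge.

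On the receiving side, 10 of 16 GABA-A receptor subunit genes fell and 2 rose, with a median change of -0.36, and 1 rose without VPA replicate 2, VPA replicate 3, PBS replicate 1 or PBS replicate 3. Gabrr1, a rho subunit gene, changed by -1.41 (SE 0.13, adjusted p = 7.74e-05) and Gabra2, an alpha subunit gene, was 2.00-fold lower, while the epsilon subunit gene Gabre rose by 0.97 (SE 0.07). Of 7 genes of GABA-B receptors and the inhibitory synapse 3 fell, and 5 fell without VPA replicate 1. Gabbr2 and Gabbr1, which encode the obligate partners of the GABA-B receptor, changed by -0.82 (SE 0.06, adjusted p = 3.32e-05) and -0.34 (SE 0.07, adjusted p = 0.0068), and Slitrk3, a synaptic adhesion gene, by -0.59 (SE 0.07).

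Whether GABA inhibits or excites a neuron depends on its chloride gradient. Slc12a5, which encodes the neuronal chloride extruder, had signals of 9.05, 8.84 and 8.87 with VPA, against 9.46, 9.49 and 9.37 with PBS. It fell by 0.52 (SE 0.07, adjusted p = 0.000705), with no overlap of the groups. The chloride importer gene Slc12a2 changed by -0.17 (SE 0.07) and did not pass (adjusted p = 0.116), and Slc12a7 rose by 0.30 (SE 0.06).

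Transcription factors of GABAergic lineages were counted in 2 lists, which were not tested against each other. Of 12 forebrain factors 6 rose and 0 fell, with a median change of 0.19, and 1 of the 6, Sp8, lay below the gauge in both groups. Of 16 factors of the midbrain, hindbrain and spinal cord 9 fell and 4 rose, with a median change of -0.67. Over all genes 15.7% fell and 13.6% rose. The counts of falls were 0 and 9 without each of the 6 arrays in turn and after quantile normalization, while the forebrain rises were 4 to 6, fewest without PBS replicate 2, and the other rises 2 to 4, fewest without PBS replicate 1 or PBS replicate 3.

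Dlx1 and Dlx2, homeobox genes that direct ventral forebrain progenitors to a GABAergic fate and act upstream of Gad genes there, rose. Dlx1 had signals of 8.23, 8.28 and 8.12 with VPA, against 6.65, 6.79 and 6.96 with PBS. Its change was 1.41 (SE 0.08, adjusted p = 8.21e-06), that of Dlx2 0.82 (SE 0.10, adjusted p = 0.000329), and Meis2, a homeobox gene of the ventral forebrain and many other regions, rose by 0.44 (SE 0.06). Dlx1 and Dlx2 therefore moved in the opposite direction to Gad1 and Gad2 in these cultures.

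The factors that fell included those of the midbrain GABAergic programme. Tal2, needed for GABAergic neurons of the midbrain, had signals of 8.83, 9.34 and 9.46 with VPA, against 10.58, 10.25 and 10.49 with PBS. The groups did not overlap, VPA replicate 1 was the lowest, and the change was -1.23 (SE 0.15, adjusted p = 0.000447). Sox14, which marks GABAergic neurons of the diencephalon and midbrain, had signals of 8.57, 8.56 and 8.46 with VPA, against 9.95, 9.68 and 9.80 with PBS, and changed by -1.28 (SE 0.08, adjusted p = 7.87e-06). Tfap2b, of the dorsal midbrain, hindbrain and neural crest, changed by -1.39 (SE 0.07, adjusted p = 2.79e-06). The other falls were those of Helt, Lhx1, Gata3, Tal1, Lhx5 and Gata2, named here to complete the count, and lay between -1.10 and -0.63. The rises were those of Pax8, Tfap2a, Pax2 and Lbx1, between 0.30 and 0.80.

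**Figure D3:**
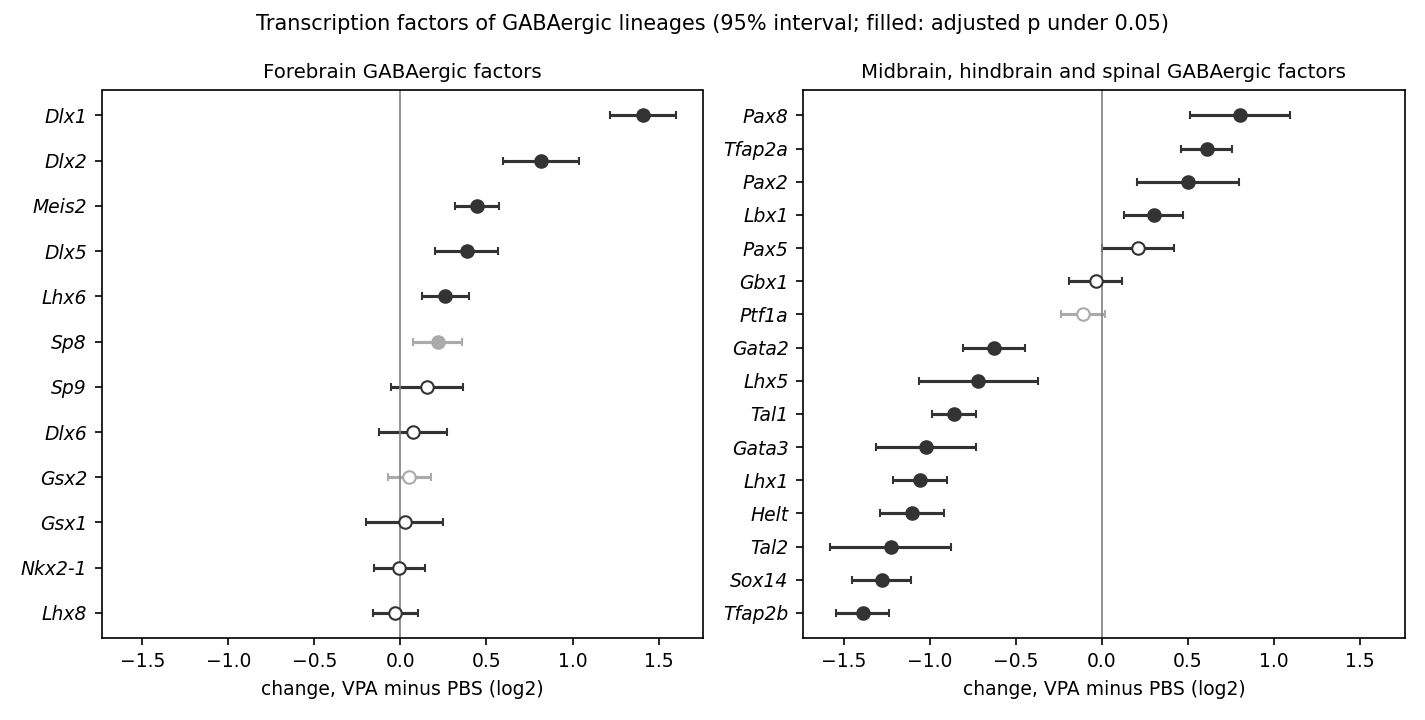
Change (horizontal axis, VPA minus PBS, log2) with its 95% interval for 12 forebrain and 16 midbrain, hindbrain and spinal transcription factor genes of GABAergic lineages (vertical axis); filled symbols passed at an adjusted p under 0.05 and grey symbols had both means below the background gauge. Dlx1 stands highest among the forebrain genes at 1.41, and 9 genes of the other list lie between -1.39 and -0.63.

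Of 12 genes of interneuron peptides and calcium-binding proteins 2 rose and 4 fell, with a median change of -0.11. Without PBS replicate 1, 1 rose, and without VPA replicate 3, 3 rose. The falls numbered 3 after quantile normalization and when any array other than VPA replicate 1 was left out. Cort, a fall that passed narrowly with all arrays (adjusted p = 0.0489), did not pass after quantile normalization or when any 1 array was left out. Npy, which encodes neuropeptide Y, had signals of 9.59, 9.64 and 9.64 with VPA, against 7.77, 8.04 and 8.05 with PBS. It rose by 1.67 (SE 0.08, adjusted p = 2.79e-06) with no overlap, in the opposite direction to the Gad genes. Reln, the reelin gene, changed by -0.83 (SE 0.07) and Tac1, a tachykinin gene, by -0.49 (SE 0.07).

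Among genes that make or load other transmitters, 10 of 17 rose and 1 fell, with a median change of 0.28, and 7 to 10 rose without 1 array, fewest without VPA replicate 3 or PBS replicate 2. The fall was that of Slc17a6, one of 3 vesicular glutamate transporter genes in the list, which had signals of 9.07, 9.32 and 9.49 with VPA, against 10.19, 10.39 and 10.36 with PBS, a change of -1.02 (SE 0.11, adjusted p = 0.000154). Of the other vesicular glutamate transporter genes, Slc17a8 rose by 0.53 (SE 0.08, adjusted p = 0.00103), with a mean of 6.60 with VPA and 6.07, under the gauge, with PBS, and Slc17a7 changed by 0.08 and did not pass (adjusted p = 0.381). Both were added after their values were seen. Genes of catecholamine synthesis were higher: Th, for tyrosine hydroxylase, rose by 0.80 (SE 0.12), and Ddc, for the decarboxylase that makes dopamine and serotonin, by 0.91 (SE 0.10), with a mean of 6.25 with VPA and 5.35, under the gauge, with PBS. Slc6a5, a glycine transporter gene of glycinergic neurons, which also use Slc32a1, rose by 0.48 (SE 0.08, adjusted p = 0.00177) and was chosen after its values were seen. Of the 10 genes that rose, 2, Tph2 and Slc5a7, had both means below the gauge.

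**Figure D4:**
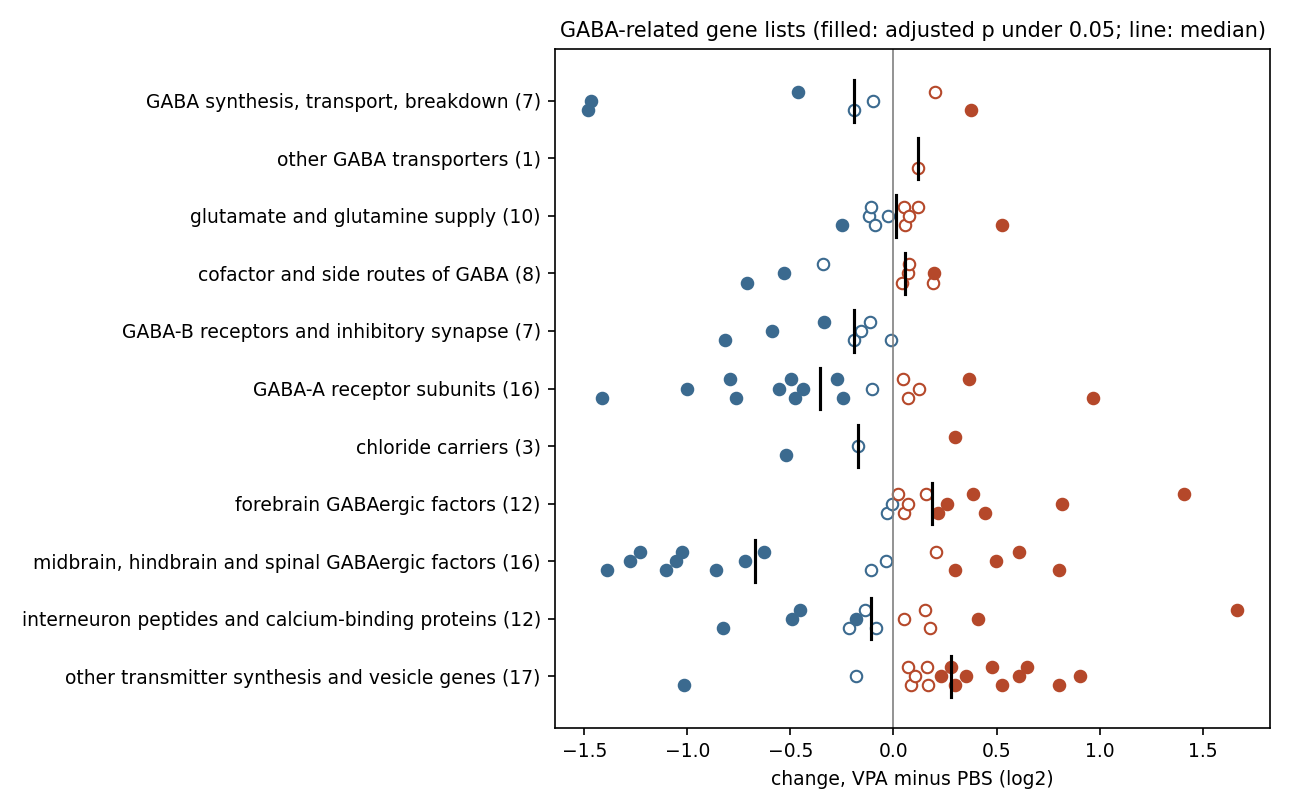
Change (horizontal axis, VPA minus PBS, log2) of every measured gene in the GABA list and 10 related lists (vertical axis, number of genes in brackets); red points are higher and blue points lower with VPA, filled points passed at an adjusted p under 0.05, and the black line is the list's median. The medians are -0.67 for midbrain, hindbrain and spinal factors, -0.36 for GABA-A subunits, 0.19 for forebrain factors and 0.28 for genes of other transmitters.

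The genes whose pattern over the 6 arrays was most like that of a changed GABA gene were found by the root mean square difference between values centred on each gene's mean. Genes with only a clone, locus, Riken or predicted name, and microRNA and vomeronasal receptor genes, were left out of this search. Gad1 and Gad2 differed from each other by 0.0553. For Gad1 the nearest other genes were Gria1, an AMPA receptor subunit gene, at 0.0581, Zic5, a zinc finger gene of the dorsal neural tube, at 0.0731 and Tfap2b at 0.0849, with changes of -1.51, -1.42 and -1.39. Gad1 thus lay closer to Gad2 than to any gene in the search, which held none of the GABA list. The margin over Gria1 was narrow, 0.0553 against 0.0581, and was not tested. This distance mostly follows the size of the change between the groups. For Gad2 the nearest genes were Amy1, an amylase gene, at 0.09, Gria1 at 0.0951 and Cntn6, a contactin gene, at 0.101. For Slc32a1 the nearest were Snora20, Sema3f and Apc2, at 0.0363 to 0.0517, and for Abat Tmem63a, Rtn4rl2 and Slc41a3, at 0.0189 to 0.0207.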

How the data were processed

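The starting values were the authors' deposited log2 signals, already normalized, with 1 column for each of 6 arrays; base 2 was inferred from the range, 2.50 to 13.89. The submitters' processing notes list Partek 6.5 and the build mm9 without a role, and how background, summarization and normalization were handled is not given in the sources used here. Normalization between arrays removes overall differences in RNA content. Per the labels' protocols, Trizol-extracted total RNA was amplified to sense-strand DNA, labelled with biotin and hybridised to Affymetrix whole transcript arrays.

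Of 35556 probe sets, 21789 had 1 symbol in GEO's platform annotation, 1621 several and 12146 none; symbols were updated by Entrez ID for 21698. Each gene took its brightest probe set. VPA and PBS were compared with limma 3.58.1 (R 4.3.3; lmFit, eBayes) over 19938 genes, and again after subtracting each array's Gad1 value or pan-neuronal mean. The main fit, the fit relative to the pan-neuronal mean and the own-variance fit relative to Gad1 were run on simulated data. A pass condition was set for the main fit only. The simulated noise was independent between genes and equally wide on every array, unlike these data, where VPA replicate 1 stood apart. The moderated fit relative to Gad1 was not run on simulated data. An exact permutation test of 3 against 3 cannot give p below 0.1, so none was run. Precision is limited by the number of arrays. Members and lists (213 of 227 entries measured) were chosen with earlier results of these data known. From each of 10 pathway lists up to 3 called genes with the largest change were named, or the 1 with the smallest p, and from each of 9 marker lists up to 2; not all are described. Same-numbered arrays did not deviate together (r = -0.0199, -0.00849 and 0.0196), so replicate numbers were not treated as pairs. Promoters for 6 of the 7 genes came from the RefSeq table (GRCm38.p6).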

Additional observations from a re-analysis of the deposited data

How the results depend on the processing

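Of 314 recomputed values, 291 kept their direction and their side of the threshold, or for counts lay within 1.5 times. Gad1, Gad2 and Abat did so under all 16 alternatives, with changes of -1.54 to -1.43, -1.56 to -1.42 and 0.31 to 0.43. Slc6a13 had no value under the 50th percentile filter, and the whole-genome counts also had an alternative over probe sets, 3190 higher and 3450 lower. With each gene's own residual variance the call of Slc32a1 was lost (-0.46, adjusted p = 0.0788), as were its change (-0.29) and that of Slc6a11 (0.37) relative to pan-neuronal genes. The own-variance fits of relative changes, and the counts of listed genes without each array, were chosen after seeing the data. With array weights Aldh5a1 passed (-0.16, adjusted p = 0.0491). After quantile normalization Gad2 minus Gad1 changed sign, to 0.00123. The number of genes higher with VPA was 2702, and was 1520 with the 50th percentile filter, 1631 without moderation and 4342 with array weights.

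Leaving out each array gave 1778 to 3949 genes higher and 2058 to 4224 lower, lowest without PBS replicate 2 and highest without VPA replicate 1, and 1 to 2 of the GABA genes higher and 3 to 4 lower. The changes ranged from -0.55 to -0.36 for Slc32a1, 0.13 to 0.31 for Slc6a11, -0.356 to -0.0706 for Slc6a13 and -0.18 to -0.0486 for Aldh5a1; the last 3 each passed without 1 array (PBS replicate 2, PBS replicate 1 and VPA replicate 1). Gad2 minus Gad1 ranged from -0.0441 to 0.0273. Relative to pan-neuronal genes the range was -0.36 to -0.20 for Slc32a1 and -0.17 to 0.11 for Slc6a13. With the replicate number as a block, 1 GABA gene rose and 3 fell, Gad1 at -1.47 (adjusted p = 2.07e-05), and the block changed no call of the 7 genes; 2592 genes were higher and 2818 lower. The causes were not tested.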
